A study of Mus musculus with 16 samples.

Results

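The collagen genes of mouse skin wounds are described here, that is, the genes whose RefSeq symbol is Col, a number, the letter a and a number, such as Col1a1. A gene was a member where at least 1 of its probes was well above background on at least 2 of the 16 arrays, and 42 of the 18127 genes that passed this filter were members. The members fall into 11 fibrillar genes, 10 genes of basement membranes and the zone around them, and 21 genes of other types. Of 43 collagen genes with a named probe, only Col9a3 had no probe past the filter. The members had 59 probes past it, and 11 members had more than 1. Each member was counted through its brightest probe, by the mean of its levels over all 16 arrays, and probes that differed from it are given separately. Every level below is the log2 signal of a probe minus the log2 75th percentile of its array, so levels compare arrays for the same probe and never probes with each other.

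RNA came from whole wounds with the intact skin around them, taken from female mice with 2 full-thickness dorsal wounds of 4 mm. The WT group was C57BL/6J mice aged 10 to 12 weeks. The db/db group was C57BLKS/J mice aged 10 weeks that carry the diabetes mutation of the leptin receptor in every cell, so strain and mutation cannot be told apart in a comparison with WT. In the db/db + estrogen group, wounds of db/db mice received topical estradiol benzoate once a day, 0.75 μg/g/day with sesame oil as the carrier. Wounds of the db/db + vehicle group received that oil without the hormone, while the wounds of the WT and db/db groups had no application. Each group had 2 arrays on each of the labelled days 7 and 14, from separate biological replicates according to the deposited design, so 16 arrays in 8 groups. An exact permutation test of 2 arrays against 2 cannot give a p below 0.333, so tests rest on the spread shared by all 8 groups.

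Collagens are triple-helical proteins of the extracellular matrix. The fibrillar types I, III and V make the cable-like fibrils of the dermis, and repair of a wound lays down type III and type I in granulation tissue. Type IV chains form the sheet-like network of basement membranes, type XVII ties basal keratinocytes to that sheet through hemidesmosomes, and type VII anchors the sheet to the dermis. Type VI forms beaded filaments between fibrils and cells, and the remaining types coat fibrils, form short networks or cross the cell membrane.

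Array 75th percentiles lay between 1091 and 2549 intensity units, 70.1% to 79.0% of probes were well above background, and 0 probes were saturated. Markers of skin were measured throughout, with 8 of 8 keratinocyte markers and 11 of 11 fibroblast markers above background on all 16 arrays. The arrays of labelled days 7 and 14 were scanned on separate days, so scan and labelled day cannot be told apart, and days are compared only through differences between groups of the same labelled day. For 40 accessions with a published fold change between db/db and WT, the signals of the arrays labelled with the other day gave that value to within 1% for 40, and those labelled with the same day for 0. The files do not show which of the records was exchanged, so every day below is the labelled one. In whole-wound RNA, fewer cells of a type and less RNA per cell cannot be told apart.

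The upstream sequences of 4 members are shown because 3 of these genes are among those that differed most between the wounds described below, and Col3a1 stands for the fibrillar chains of the dermis, which differed less. Col4a4 and Col4a3 lie head to head, so that 71 bases between their starts serve as the upstream stretch of both. Sequences are from RefSeq on GRCm38.p6, 5′ to 3′ on the strand of the named gene, with motif matches on either strand in capitals. The TATA box was searched as TATAAA. The CCAAT box was searched as its name spells it. The GC box was searched as GGGCGG. The matches shown do not overlap one another.
Col4a4, chr1:82586850-82586920, minus strand: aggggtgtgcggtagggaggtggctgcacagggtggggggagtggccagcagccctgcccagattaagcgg
Col4a6, chrX:141474077-141474326, minus strand: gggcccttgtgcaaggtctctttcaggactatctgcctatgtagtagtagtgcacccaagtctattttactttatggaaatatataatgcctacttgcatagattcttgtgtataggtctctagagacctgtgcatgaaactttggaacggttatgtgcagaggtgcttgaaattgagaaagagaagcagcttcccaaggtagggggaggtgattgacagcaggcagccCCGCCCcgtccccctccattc
Col17a1, chr19:47692043-47692292, minus strand: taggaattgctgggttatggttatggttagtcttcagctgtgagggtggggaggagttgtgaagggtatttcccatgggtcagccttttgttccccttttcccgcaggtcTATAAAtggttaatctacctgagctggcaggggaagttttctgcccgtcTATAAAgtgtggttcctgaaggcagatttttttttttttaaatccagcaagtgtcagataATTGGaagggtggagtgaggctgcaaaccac
Col3a1, chr1:45311288-45311537, plus strand: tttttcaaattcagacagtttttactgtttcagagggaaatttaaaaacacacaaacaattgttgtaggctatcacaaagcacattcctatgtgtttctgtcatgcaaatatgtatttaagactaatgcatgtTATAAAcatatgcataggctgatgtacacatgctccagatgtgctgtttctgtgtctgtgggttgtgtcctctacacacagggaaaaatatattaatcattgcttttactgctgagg

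The stretch between Col4a4 and Col4a3 held none of these motifs, the Col4a6 window held 1 GC box, the Col17a1 window held a TATA box at 2 places and 1 CCAAT box, and the Col3a1 window held 1 TATA box. Windows of 250 bases before the start were found for 35 of the 42 members. A GC box was in 60% of these 35 windows and in 32.7% of all 32851 windows of that length, a CCAAT box in 37.1% and 33.8%, and a TATA box in 14.3% and 12.4%. By class, a CCAAT box was in 6 of 9 windows of basement membrane genes, 3 of 8 of fibrillar genes and 4 of 18 of other genes. The full estrogen response element GGTCANNNTGACC was in 0 of the 35 windows and in 0.0639% of all windows. These are letters in a window and not sites of binding.

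Of the 42 members, 35 were above background on all 16 arrays, that is 10 of 11 fibrillar, 9 of 10 basement membrane and 16 of 21 other genes. Those that were not were Col2a1, a chain of cartilage, on 7 arrays, the basement membrane chain Col4a3 on 4, Col10a1, a chain of growth cartilage, on 4, Col6a6 on 10, Col28a1 on 14, and Col13a1 and Col19a1. Col19a1 passed the filter on 2 arrays that were of different groups and entered no test. The main dermal chains varied little on this scale. Col1a1 levels lay between 6.14 and 7.65 over the 16 arrays, Col1a2 between 7.74 and 8.76 and Col3a1 between 7.00 and 8.05. Each was highest on the WT array of labelled day 14 that had the lowest 75th percentile, 1091. Col1a1 and Col3a1 were lowest on an array at 2318 and Col1a2 on one at 2436. Whether the signal of these bright probes was compressed was not tested. Among basement membrane members Col17a1 lay between 0.88 and 3.31, Col7a1 between 3.01 and 6.16 and Col4a6 between −4.14 and −1.05, while Col4a1, Col4a2, Col4a5 and Col18a1 spanned 1.13 to 1.44 log2 units, less than the 1.51 of Col1a1.

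**Figure D1:**
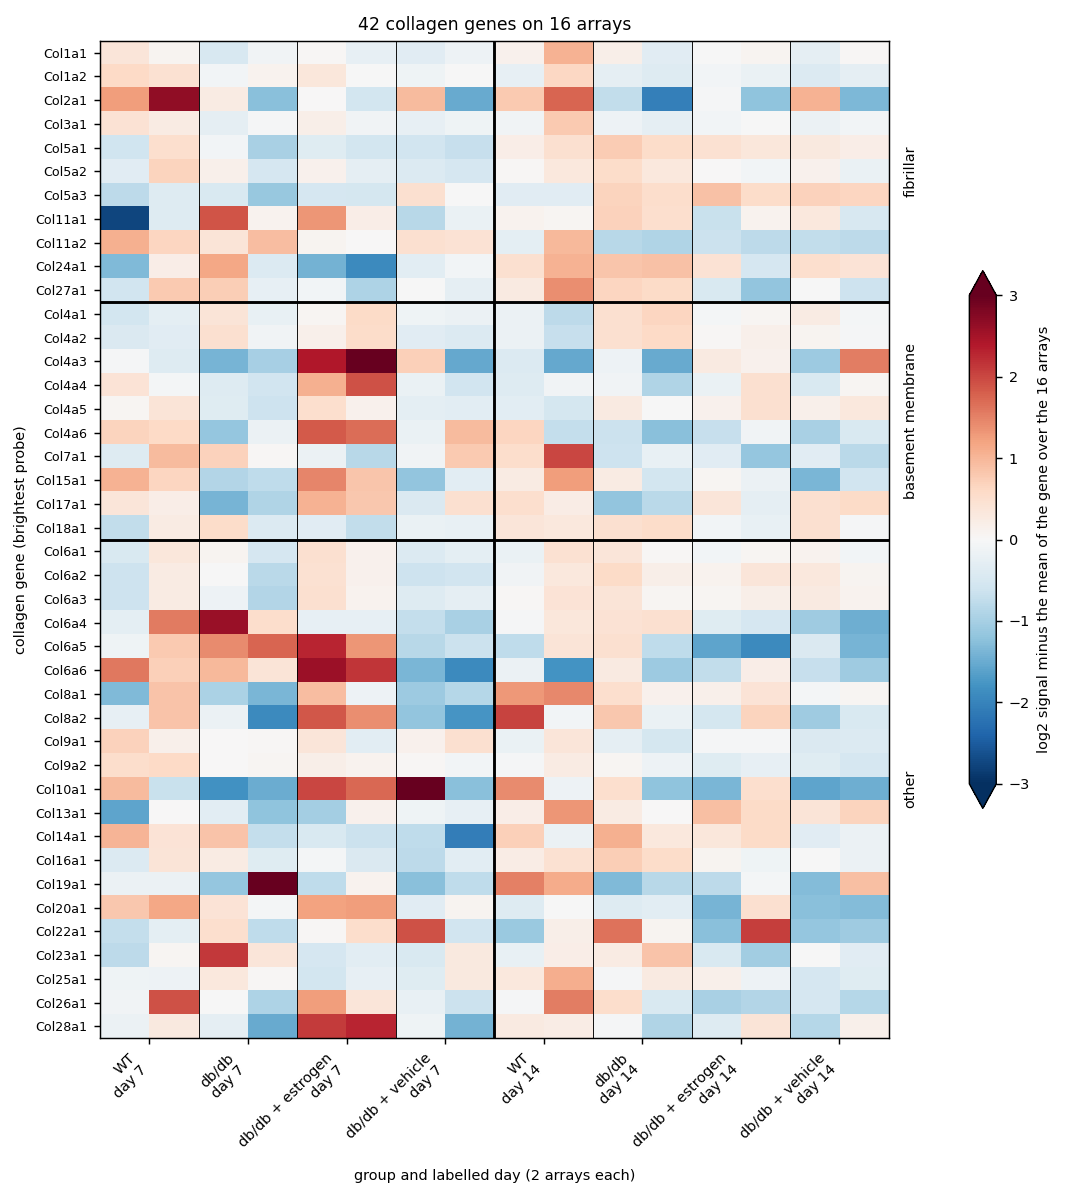
Level of the 42 collagen genes (rows, by class) on the 16 arrays (columns, 2 for each group and labelled day), each as the log2 signal minus the mean of that gene over the 16 arrays, with colours cut at −3 and 3. The columns of db/db + estrogen on labelled day 7 are red for Col4a3, Col4a4, Col4a6, Col15a1, Col17a1 and Col28a1, while the rows of Col1a1, Col1a2 and Col3a1 stay pale on every array.

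Differences below are called where limma gave an unadjusted two-sided p under 0.05 and a fold change above 2, the thresholds of the study, and each adjusted p is limma's moderated p after Benjamini-Hochberg adjustment over all probes tested in that comparison. Over the 8 comparisons of groups, with Col19a1 never tested, 18 members were called in none, 9 in 1, 7 in 2, 4 in 3, 2 in 4 and 1, Col17a1, in 6. The chains Col1a1, Col1a2, Col3a1, Col5a1, Col5a2, Col6a1, Col6a2, Col6a3, Col4a2, Col4a5 and Col18a1 were among the 18. Within a labelled day the comparisons of db/db with WT, of db/db + estrogen with db/db and of db/db + vehicle with db/db share the db/db arrays, and the comparison of both treated groups reuses their arrays, so a gene lower in db/db and higher with treatment rests in both cases on the same db/db arrays. Comparisons of different labelled days share no array.

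The comparison of db/db with WT asks how collagen expression in diabetic wounds differs from that in normal wounds. On labelled day 7 the wounds of db/db mice had lower Col17a1 and Col15a1 than those of WT mice, and on labelled day 14 lower Col17a1 and Col11a2 and higher Col4a1, each also after adjustment. The type I and type III chains were lower by 0.50 to 0.66 on the log2 scale on each labelled day and passed no threshold. The array 75th percentiles behind these levels were 1204 and 1406 in WT and 2318 and 1824 in db/db on labelled day 7. On labelled day 14 they were 2383 and 1091 in WT and 2352 and 2549 in db/db. The part of this scaling in the type I and type III differences was not tested. On labelled day 7, 7 of 38 members tested were called, 3 higher and 4 lower, where 14.1% of all genes tested were called, 6.28% higher and 7.82% lower. Without the first WT array 0 were higher and 6 lower, without the first db/db array 1 and 6, with 3 of the 7 genes among them each time, and without the second WT array 5 were higher and 2 lower. On labelled day 14, 5 of 38 were called, 1 higher and 4 lower, against 12.7% of all genes, 2.75% higher and 9.94% lower. Among members above background on all arrays compared, 6 of 36 were called on labelled day 7 and 4 of 36 on labelled day 14. With quantile normalization the share of all calls that were higher went from 40.3% to 52.3% on labelled day 7 and from 13.1% to 32.2% on labelled day 14, and the median over the collagen genes tested on labelled day 14 from −0.16 to 0.16. After adjustment 2 members remained on labelled day 7 and 3 on labelled day 14, where 9.13% and 8.71% of all genes did.

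Among the fibrillar chains of the dermis, the Col1a1 level on labelled day 7 was 6.99 and 6.70 in WT and 6.14 and 6.51 in db/db, so the groups did not overlap, as for 60.6% of all genes tested, and the difference was −0.52 (95% interval −1.18 to 0.14, adjusted p = 0.275). On labelled day 14 it was 6.74 and 7.65 in WT and 6.79 and 6.28 in db/db, a difference of −0.66 (adjusted p = 0.146) with overlapping groups. Col1a2, the partner chain in the type I trimer, differed by −0.53 (95% interval −1.08 to 0.02) and −0.52 on the 2 labelled days. Col3a1, the type III chain of early repair, read 7.70 and 7.51 in WT and 7.00 and 7.22 in db/db on labelled day 7, and 7.17 and 8.05 against 7.11 and 7.00 on labelled day 14. Its differences were −0.50 (95% interval −1.05 to 0.06) and −0.55, and on each labelled day the db/db arrays were below the WT arrays, where 63.1% of all genes tested did not overlap on labelled day 14. For all 3 genes on labelled day 7 these intervals reach from more than 2-fold lower to slightly higher.

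The type V chains, which start and limit the width of type I fibrils, were not called. Col5a1 differed by −0.47 and 0.31 on labelled days 7 and 14, and Col5a2 by −0.34 and 0.27. Col5a3 read 4.34 and 4.35 in WT and 5.34 and 5.20 in db/db on labelled day 14, so every db/db array was higher. The difference of 0.93 ± 0.25 (SE, adjusted p = 0.0281) stayed just under the fold threshold, and on labelled day 7 it was −0.22. Minor fibrillar chains were not alike. Col27a1 differed by 0.15 and −0.22 on labelled days 7 and 14 and Col24a1 by 0.94 and 0.10, and neither was called. Col11a1, a cartilage chain that joins type V fibrils, read −5.61 and −3.23 in WT and −0.96 and −2.73 in db/db on labelled day 7, a rise of 2.57 ± 0.78 (adjusted p = 0.0552) that was 4.65 on slide 1 and 0.50 on slide 2. It was 1.39 without the first WT array and 1.69 without the first db/db array, and was called in neither case. Col11a2 fell on labelled day 14, from −5.84 and −4.57 in WT to −6.36 and −6.45 in db/db, a difference of −1.19 ± 0.34 (adjusted p = 0.0366). The cartilage chain Col2a1 was near background and was lower in db/db on each labelled day, where the difference was −2.46 ± 1.02 on labelled day 7 (adjusted p = 0.140) and it was at least 3.06-fold lower on labelled day 14 (adjusted p = 0.0934), where neither db/db array was well above background. Col2a1 entered the test of each labelled day only through the WT arrays, which favours a lower level in db/db. Col11a2 was −0.56 without the second WT array of labelled day 14 and was then not called. Its call was also lost under normexp background correction, with quantile normalization and in a fit of only the arrays compared. Col2a1 was −1.76 or −1.71 without the second WT or db/db array of labelled day 7, and was called in neither case. The Col2a1 call of labelled day 14 was also lost without the second WT or the second db/db array, under normexp background correction (−0.72) and with quantile normalization (−1.73), and the first of these values lies below the bound.

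**Figure D2:**
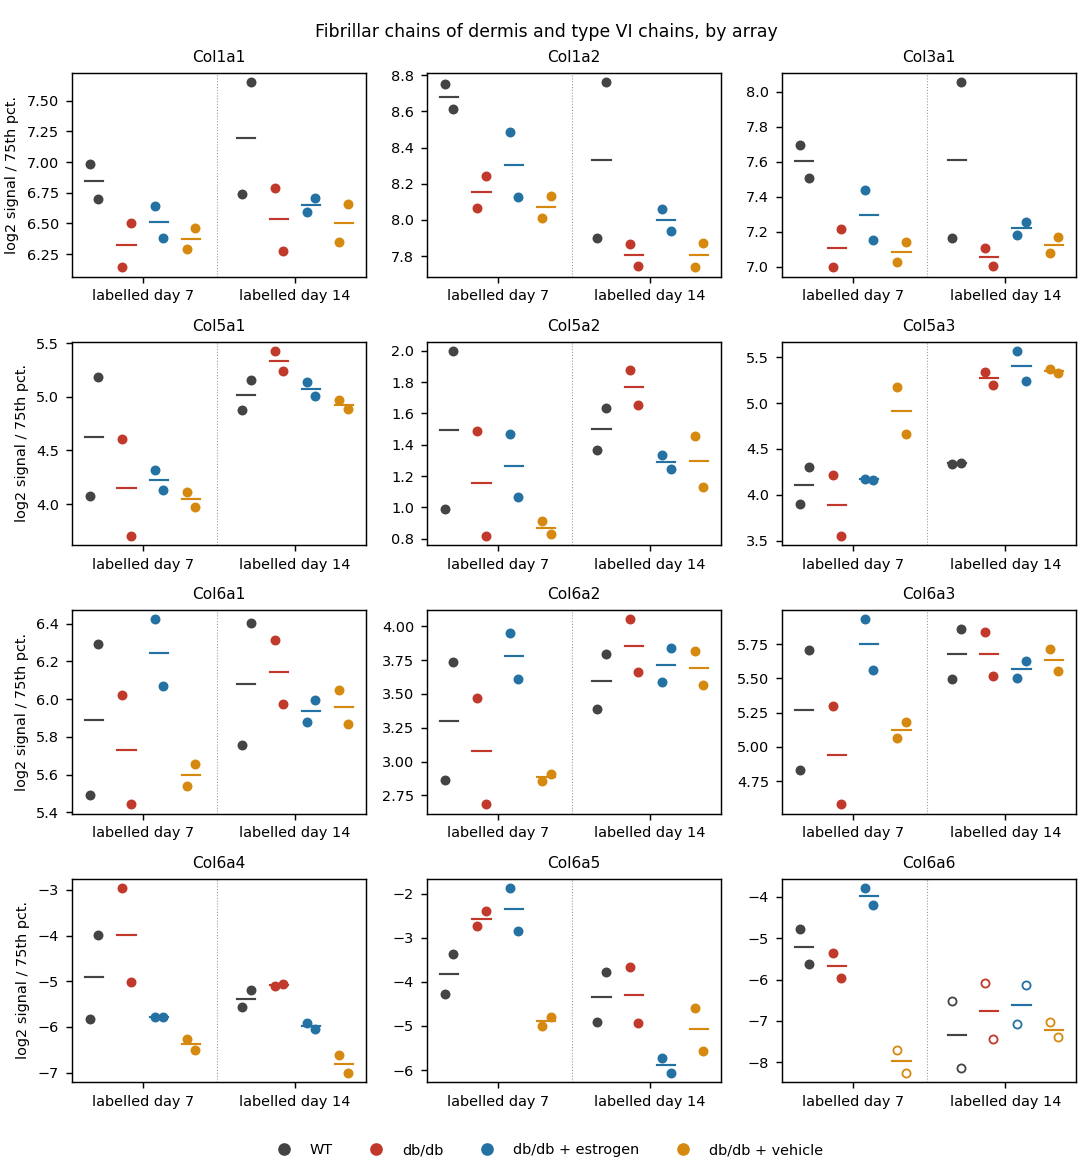
Level of chains of types I, III, V and VI on each array by group and labelled day, as log2 signal minus the log2 75th percentile of the array, with each panel on its own axis (points, arrays; bar, mean of 2; open points, groups not above background on both arrays). For Col1a1, Col1a2 and Col3a1 the WT bar is the highest on each labelled day, and among the groups of labelled day 7 the bars of Col6a1, Col6a2 and Col6a3 are highest in db/db + estrogen.

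At the basement membrane, Col17a1 was lower in db/db on each labelled day. The level on labelled day 7 was 2.63 and 2.47 in WT and 0.88 and 1.38 in db/db, and on labelled day 14 it was 2.78 and 2.50 in WT and 1.09 and 1.47 in db/db. The groups were apart by more than 1 log2 unit each time, with differences of −1.42 ± 0.32 (adjusted p = 0.0191) and −1.36 ± 0.32 (adjusted p = 0.0176), and the call held under all 16 alternatives of each labelled day. Col15a1, a multiplexin of the outer face of basement membranes, read −1.33 and −1.73 in WT and −3.24 and −3.12 in db/db on labelled day 7. This was a fall of 1.65 on the log2 scale (SE 0.44, adjusted p = 0.0372) in its brightest probe, and its other 2 probes gave −0.74 and −0.79, which were not called. Col7a1, the anchoring fibril chain, read 4.69 and 6.16 in WT and 3.54 and 3.93 in db/db on labelled day 14, a difference of −1.69 ± 0.59 (adjusted p = 0.0712) that was −0.95 without the second WT array and −1.49 without the first db/db array, and was called in neither case. Its groups overlapped on labelled day 7, with a difference of 0.09 (95% interval −1.22 to 1.40).

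The type IV chains did not move as a set. Col4a1 and Col4a2, the paired chains found in nearly all basement membranes, were higher in db/db on labelled day 14, with Col4a1 at 2.79 and 2.17 in WT and 3.44 and 3.61 in db/db and Col4a2 at 2.93 and 2.43 against 3.60 and 3.72. Col4a1 rose by 1.04 ± 0.27 (adjusted p = 0.0253), a call lost without the second WT array (0.74) or the second db/db array (0.96), with slide as a fixed block (0.95) and with quantile normalization (0.95), and Col4a2 differed by 0.98 ± 0.23 (adjusted p = 0.0175), just under the fold threshold. The same chains differed on labelled day 7 by 0.50 (95% interval −0.10 to 1.1) and 0.59 (95% interval 0.08 to 1.1). Col4a5 and Col4a6, the pair found in the basement membrane below the epidermis, were lower in db/db on labelled day 7. Col4a5 read −1.80 and −1.47 in WT and −2.21 and −2.48 in db/db, a difference of −0.71 ± 0.20 (adjusted p = 0.0469) below the fold threshold. Col4a6 read −2.23 and −2.30 against −4.05 and −3.07, a difference of −1.30 ± 0.52 (adjusted p = 0.13), and its second probe gave 0.26. Without the first db/db array the Col4a6 difference was −0.80, without the first or second WT array −1.26 and −1.33, and it was not called in these cases. Col4a5 and Col4a6 differed by 0.56 and −0.91 on labelled day 14, and neither was called. Col4a4 differed by −0.66 and −0.26, and Col4a3 was above background on no array of these groups.

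Among the other types, Col23a1 and Col6a5 were called higher on labelled day 7 and no member was called on labelled day 14. Col23a1, a transmembrane collagen, read −2.36 and −1.51 in WT and 0.54 and −1.22 in db/db, a rise of 1.6 ± 0.53 (adjusted p = 0.0758). Without the first db/db array the difference was 0.72 and without the first WT array 1.17, and neither was called. Col6a5, a minor type VI chain, read −4.28 and −3.37 in WT and −2.73 and −2.40 in db/db (1.26 ± 0.55, adjusted p = 0.162), and 9 of its 16 alternatives lost the call, among them those without the first WT array (0.80), the first db/db array (1.42) or the second db/db array (1.09). The 3 main type VI chains differed by −0.33 to −0.16 on labelled day 7 and by −0.00 to 0.26 on labelled day 14, with overlapping groups.

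For labelled day 7 slide 1 carried the first and slide 2 the second replicate of all 4 groups, so differences of same-numbered arrays are within slides, and all 7 called members differed in the called direction on each slide, 7 past 2-fold on slide 1 and 3 on slide 2. A gene called on the mean of both slides tends to have that direction on each. The db/db arrays of labelled day 14 were on slide 3 and the WT arrays on slide 4, so slide and group are tied there except through the treated groups. Markers of other cells moved with this comparison. On labelled day 7, 6 of 7 hair follicle markers were lower in db/db, with a summed level of 1.42 to 29.1 times the 75th percentile in WT and 0.181 to 0.203 in db/db, 5 of 7 neutrophil markers were higher, and 1 of 8 keratinocyte markers was lower, with summed levels of 431 to 436 in WT and 206 to 322 in db/db. At labelled day 14, 2 of 8 keratinocyte markers were lower (375 to 501 in WT, 212 to 369 in db/db), 4 of 7 neutrophil markers were higher and 0 of 6 hair follicle markers tested were called. The summed neutrophil level was 296 to 305 in WT and 401 to 447 in db/db on labelled day 7. On labelled day 14 it went the other way, at 322 to 432 in WT and 254 to 295 in db/db. Fibroblast markers were called higher for 3 of 11 on labelled day 7 (302 to 338 in WT, 332 to 431 in db/db) and for 0 of 11 on labelled day 14. Leukocyte markers were called higher for 2 and lower for 1 of 5 on labelled day 7 and adipocyte markers higher for 1 of 6 on each labelled day. The part of these cells in the collagen differences was not tested.

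**Figure D3:**
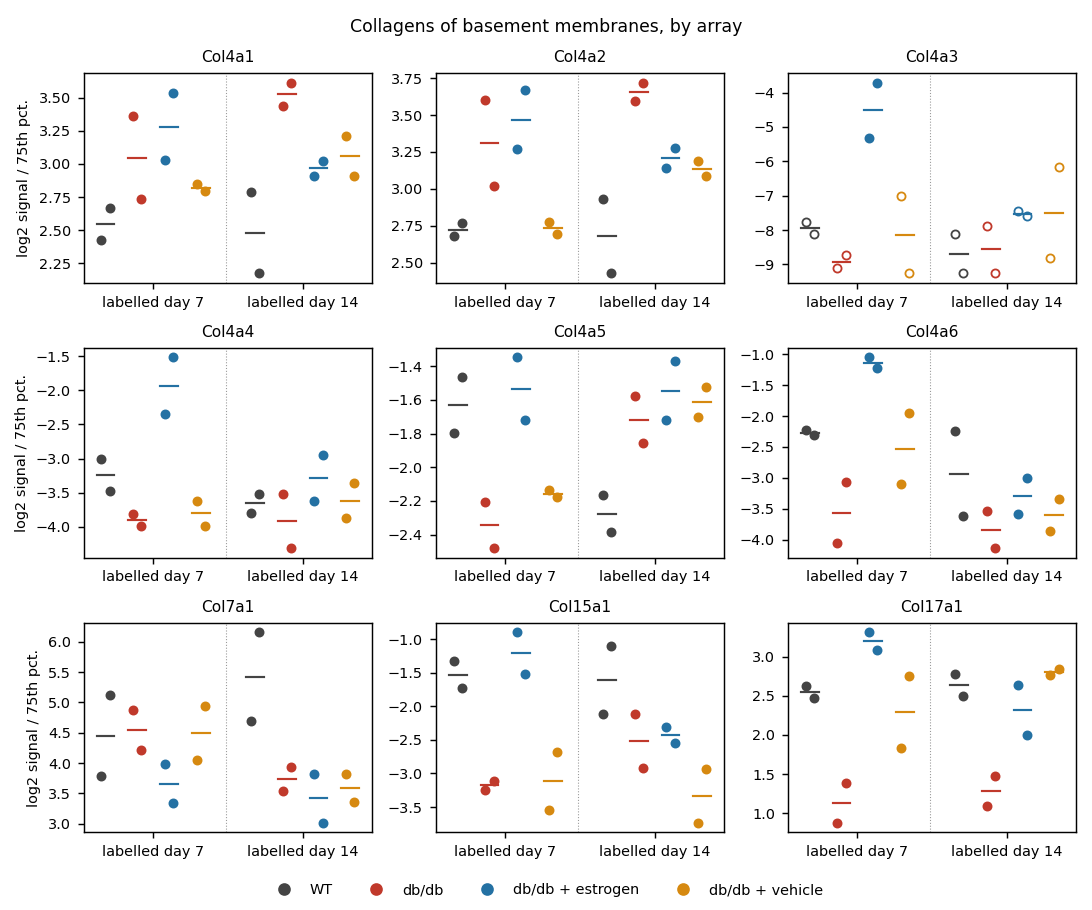
Level of 9 basement membrane collagens on each array by group and labelled day, as log2 signal minus the log2 75th percentile of the array, with each panel on its own axis (points, arrays; bar, mean of 2; open points, groups not above background on both arrays). Col17a1 is lowest in db/db on each labelled day, and Col4a3, Col4a4 and Col4a6 are highest in db/db + estrogen on labelled day 7.

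The comparison of db/db + estrogen with db/db asks how collagen expression changed with topical estrogen. On labelled day 7, 13 of 39 members tested were called, 10 higher and 3 lower, where 10.9% of all genes tested were called, 5.56% higher and 5.3% lower. The genes that rose were 5 of 10 basement membrane members and 5 of 19 members of other types, and 0 of 10 fibrillar members rose. After adjustment 6 members were still higher, Col4a3, Col4a4, Col4a6, Col15a1, Col17a1 and Col28a1, where 2.44% of all genes were (5.58% in either direction). The median difference was 1.39 over the 10 basement membrane members, 0.09 over the 10 fibrillar members and 0.51 over the 19 others, and 0.04 over all genes. Col4a3 and Col10a1 entered these counts only because both db/db + estrogen arrays were above background, which all but sets their direction. Col28a1 also entered only through those arrays, which favours a rise. Among members above background on all arrays compared, 10 of 36 were called, 7 higher and 3 lower. On labelled day 14, 4 of 37 were called, 1 higher and 3 lower, against 4.01% of all genes, 2.34% higher and 1.67% lower, and by limma 0 remained after adjustment, with 4 at an unadjusted p under 0.05, where 0.122% of all genes remained.

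Col17a1 read 0.88 and 1.38 in db/db and 3.31 and 3.09 in db/db + estrogen on labelled day 7, so the treated arrays were also above the WT arrays at 2.63 and 2.47. The rise of 2.07 ± 0.32 (adjusted p = 0.00607) was a 4.21-fold change. At labelled day 14 it read 1.09 and 1.47 in db/db and 2.63 and 2.00 in db/db + estrogen, a rise of 1.04 ± 0.32 (adjusted p = 0.334) that was 0.85 without the first db/db array and 0.72 without the first treated array, and was called in neither case. Col15a1 rose on labelled day 7, from −3.24 and −3.12 to −0.90 and −1.53, by 1.96 ± 0.44 (adjusted p = 0.0316), and its other probes gave 1.86 and 1.92, each also called after adjustment. Col7a1 read 4.87 and 4.21 in db/db and 3.98 and 3.34 in db/db + estrogen, a difference of −0.88 (95% interval −2.19 to 0.43). Col18a1, the other multiplexin, differed by −0.60 (adjusted p = 0.414). Anchoring fibril and hemidesmosome chains thus had differences of opposite sign, of which only that of Col17a1 passed the test.

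All 6 type IV chains had a positive difference on labelled day 7, and 3 of them rose. Of these, Col4a3 entered the test only through the db/db + estrogen arrays, so its direction was all but set by the filter. Col4a3 was not well above background in db/db or WT and read −5.31 and −3.71 in db/db + estrogen, at least 7.43-fold higher than in db/db (adjusted p = 0.0276). The Col4a3 call held under all 15 alternatives, at log2 differences of 1.40 to 5.21, the lowest of which lies below that bound. Its head-to-head neighbour Col4a4, whose shared upstream stretch is printed above, read −3.81 and −3.99 in db/db and −2.35 and −1.52 in db/db + estrogen, a rise of 1.96 ± 0.37 (adjusted p = 0.0149). Both arrays of the treated group were above every array of the other 7 groups for each of these genes. Col4a6 read −4.05 and −3.07 in db/db and −1.05 and −1.23 in db/db + estrogen, a rise of 2.42 ± 0.52 (adjusted p = 0.0265), and its second probe gave 0.04 ± 0.16. Col4a5 read −2.21 and −2.48 against −1.35 and −1.72, a difference of 0.81 ± 0.20 (adjusted p = 0.0476) below the fold threshold. The ubiquitous pair Col4a1 and Col4a2 differed by 0.23 (95% interval −0.37 to 0.84) and 0.16 (95% interval −0.35 to 0.67), with overlapping groups. None of the 5 type IV chains tested on labelled day 14 was called, and their differences ran from −0.56 to 0.64.

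The fibrillar chains of the dermis were close between these groups on labelled day 7. Col1a1 read 6.64 and 6.38 in db/db + estrogen and 6.14 and 6.51 in db/db, a difference of 0.19 (95% interval −0.47 to 0.85), Col1a2 differed by 0.15 (−0.40 to 0.70) and Col3a1 by 0.19 (−0.37 to 0.74). Differences of Col5a1, Col5a2 and Col5a3 were 0.07, 0.11 and 0.29. Intervals of this width do not show equal levels. At labelled day 14 the differences of Col1a1, Col1a2 and Col3a1 were 0.11, 0.19 and 0.16, with upper ends of 0.78, 0.75 and 0.72. Col24a1, a minor fibrillar chain, fell on labelled day 7 from −0.41 and −1.99 to −2.99 and −3.49, a difference of −2.04 ± 0.58 (adjusted p = 0.0704) that was −1.25 and not called without the first db/db array. Col27a1 fell on labelled day 14 from −1.31 and −1.40 to −2.43 and −3.14, a difference of −1.43 ± 0.55 (adjusted p = 0.474) that was not called without the first (−1.39) or second (−1.48) db/db array or the second treated array (−1.07).

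**Figure D4:**
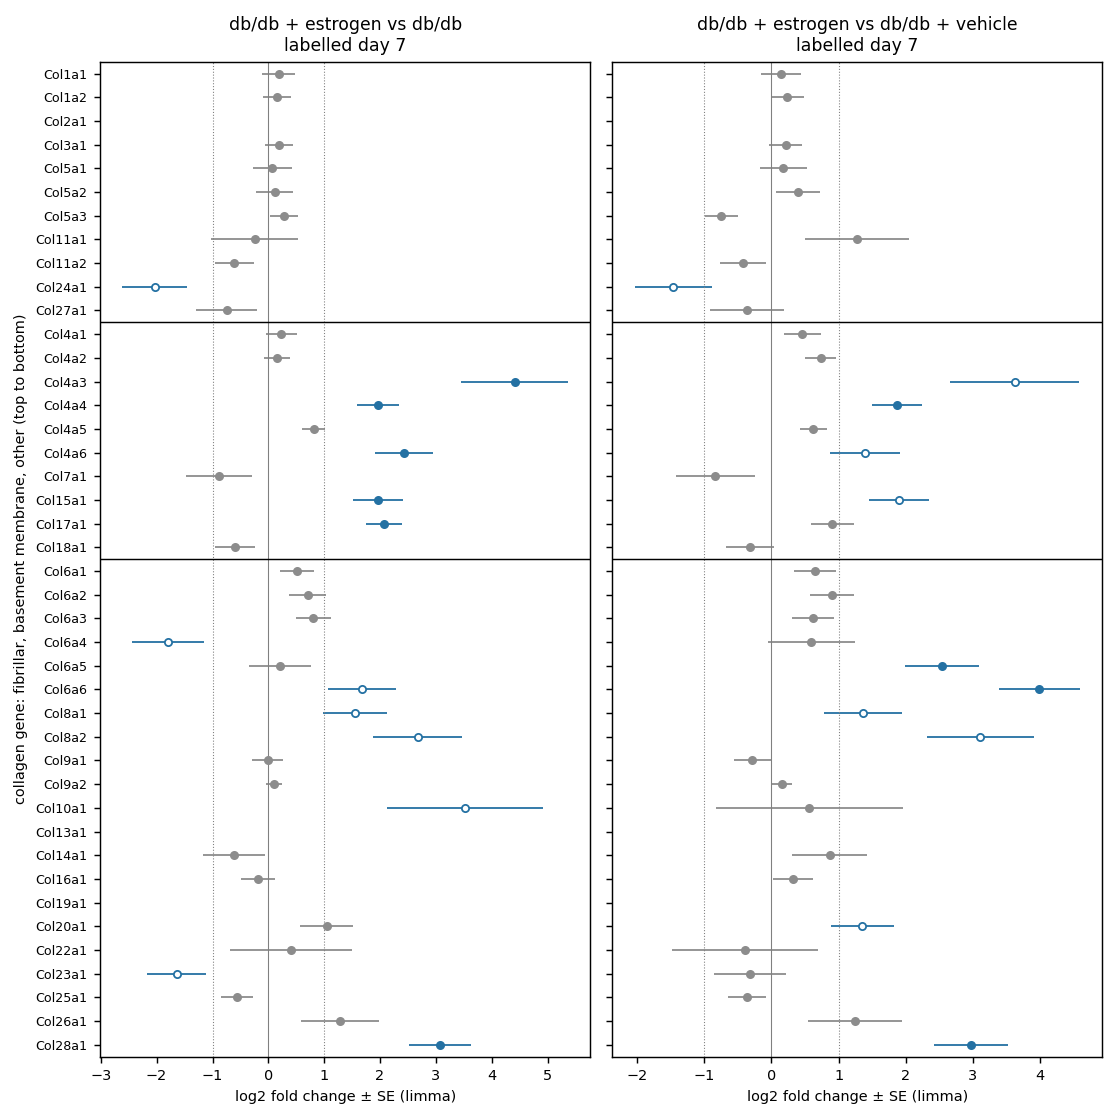
Log2 fold change ± SE from limma for each collagen gene tested on labelled day 7, db/db + estrogen against db/db (left) and against db/db + vehicle (right), grouped into fibrillar, basement membrane and other types, with dotted lines at a 2-fold change (blue, called; filled blue, also after adjustment; grey, not called; no point, not tested). On the left 5 basement membrane genes are filled blue, and the main fibrillar chains lie at 0.07 to 0.29.

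Among the other types, Col28a1, a collagen with von Willebrand domains known from peripheral nerve, rose on labelled day 7 and alone remained after adjustment. It read −6.05 and −7.31 in db/db, with 1 of the 2 arrays above background, and −3.70 and −3.50 in db/db + estrogen, a rise of 3.08 ± 0.55 (adjusted p = 0.0118). Col28a1 entered the test only through the db/db + estrogen arrays, which favours a rise. The short-chain network collagens Col8a1 and Col8a2, known from vessel walls, rose from −2.31 and −2.73 to −0.43 and −1.5 and from −2.50 and −4.25 to −0.47 and −0.93. Their differences were 1.55 ± 0.58 (adjusted p = 0.163) and 2.67 ± 0.79 (adjusted p = 0.0823), and treated and untreated arrays did not overlap, as for 57.1% of all genes tested. Col8a1 was not called without the first treated array (1.02) or the second db/db array (1.35), and Col8a2 not without the second db/db array (1.80). Col10a1 was above background only in db/db + estrogen among these groups and was at least 2.33-fold higher (adjusted p = 0.190). The call was lost when any 1 of the 4 arrays was left out, with quantile normalization, and at a log2 difference of 0.69, below that bound, under normexp background correction.

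The type VI chains split. The main chains Col6a1, Col6a2 and Col6a3 had differences of 0.51 (95% interval −0.18 to 1.21), 0.71 (−0.03 to 1.44) and 0.81 (0.11 to 1.51) on labelled day 7, below the fold threshold. For each the treated arrays lay above the db/db arrays, in a comparison where 57.1% of all genes tested did not overlap. Col6a6 rose from −5.37 and −5.95 to −3.78 and −4.19, by 1.67 ± 0.61 (adjusted p = 0.152), and was not called without the first treated array (1.47) or the second db/db array (1.38). Col6a4 fell from −2.95 and −5.02 to −5.79 and −5.78, a difference of −1.80 ± 0.65 (adjusted p = 0.149), in which the first db/db array stood far above the second. Without that array the difference was −0.77, without the first or second treated array −1.79 and −1.80, and none of these was called. Col6a5 differed by 0.21 on labelled day 7 and fell on labelled day 14, from −3.68 and −4.93 to −5.73 and −6.06, a difference of −1.59 ± 0.55 (adjusted p = 0.412), not called without the first db/db array (−0.97) or the second treated array (−1.43). Col23a1 fell on each labelled day, with differences of −1.64 ± 0.53 (adjusted p = 0.109) and −1.31 ± 0.53 (adjusted p = 0.508), and the first of these was not called without the first db/db array (−0.77) or the first treated array (−1.55), nor the second without the second array of either group (−1.01 for each).

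All 13 called members of labelled day 7 differed in the called direction on each slide, 13 past 2-fold on slide 1 and 11 on slide 2. Calling genes on the mean of both slides favours this, as said above. Leaving out the first db/db + estrogen array left 8 calls. Of the treated arrays of labelled day 14 only the first db/db + estrogen array shared a slide with the db/db arrays, and with slide as a block 1 member was called. Marker lists moved strongly beside the rise on labelled day 7. Hair follicle markers were called higher for 7 of 7, from a summed level of 0.181 to 0.203 in db/db to 9.17 to 12.7, with 3 of 7 above background on all 16 arrays. Keratinocyte markers were called higher for 4 of 8 (206 to 322 in db/db, 418 to 530 in db/db + estrogen), neutrophil markers lower for 7 of 7 (401 to 447 against 6.2 to 25.1), fibroblast markers higher for 1 and lower for 1 of 11, and endothelial markers for 0 of 7. Leukocyte markers were called higher for 1 and lower for 1 of 5, adipocyte markers higher for 1 of 6, myofibroblast markers for 0 of 4 (1 of 4 lower on labelled day 14), and skeletal muscle markers for 0 of 8 in this and each of the other comparisons of groups. Their part in the collagen differences was not tested. The hair follicle sums of labelled day 14 were 0.185 to 0.211 in db/db and 0.198 to 0.255 in db/db + estrogen, with 0 of 4 markers called, while 1 of 8 keratinocyte markers was higher and 2 of 7 neutrophil markers were lower. The neutrophil sums of labelled day 14 went the other way, at 254 to 295 in db/db and 307 to 330 in db/db + estrogen.

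The comparison of db/db + vehicle with db/db shows what sesame oil alone went with. On labelled day 7, 7 of 36 members tested were called, 2 higher and 5 lower, against 5.51% of all genes, 3.08% higher and 2.43% lower. For labelled day 14 it was 2 of 37, 1 higher and 1 lower, against 7.91%, 5.19% higher and 2.72% lower. Among members above background on all arrays compared on labelled day 7, 6 of 35 were called, 2 higher and 4 lower. After adjustment 0 members remained on each labelled day, while 8 and 5 members had an unadjusted p under 0.05, and 0.165% and 0.197% of all genes remained. Col17a1 rose with vehicle as well. It read 1.84 and 2.75 in db/db + vehicle on labelled day 7 and 2.76 and 2.84 on labelled day 14, above every db/db array of the same labelled day, with rises of 1.17 ± 0.32 (adjusted p = 0.173) and 1.52 ± 0.32 (adjusted p = 0.0891). The first of these was not called without the first db/db array (0.92) or the second vehicle array (0.71). The other 8 basement membrane members tested on each labelled day were not called, and Col4a4 and Col4a6 differed by 0.10 and 1.04 on labelled day 7.

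The minor type VI chains fell with vehicle on labelled day 7. Col6a4 read −2.95 and −5.02 in db/db and −6.25 and −6.51 in db/db + vehicle (−2.40 ± 0.65, adjusted p = 0.167), and Col6a5 read −2.73 and −2.40 against −5.00 and −4.79 (−2.33 ± 0.55, adjusted p = 0.128). Col6a6 was not well above background in db/db + vehicle and was at least 3.02-fold lower (adjusted p = 0.154). It entered the test only through the db/db arrays, which all but sets its direction. The Col6a6 difference was −0.51 and not called under normexp background correction. The groups did not overlap for any of these 3 chains, as for 45.2% of all genes tested, while the main type VI chains differed by −0.19 to 0.18. Col6a4 was also lower on labelled day 14, at −6.61 and −7.00 against −5.10 and −5.05 (−1.73 ± 0.65, adjusted p = 0.219), a call lost without either db/db array (−1.75 and −1.71) or the second vehicle array (−1.53). Col14a1, which coats dermal fibrils, fell from 3.99 and 2.44 to 2.39 and 1.07 on labelled day 7 (−1.48 ± 0.56, adjusted p = 0.299), and the call was lost without the first db/db array (−0.70) or the second vehicle array (−0.82). Col23a1 fell by 1.32 on the log2 scale (adjusted p = 0.324), a call lost without the first db/db array (−0.45) or the first vehicle array (−0.95).

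Among fibrillar chains Col5a3 rose with vehicle on labelled day 7, from 4.22 and 3.55 to 5.17 and 4.67, by 1.03 ± 0.25 (adjusted p = 0.128), a call lost without the first vehicle array (0.78) or the second db/db array (0.70). Col1a1 read 6.29 and 6.46 in db/db + vehicle, within the db/db arrays, a difference of 0.05 (95% interval −0.61 to 0.71), and Col1a2 and Col3a1 differed by −0.08 and −0.02. At labelled day 14 these 3 genes differed by −0.04, −0.00 and 0.07. Hair follicle markers were called higher for 3 of 6 on labelled day 7, with sums of 0.306 and 2.57 in db/db + vehicle, and keratinocyte markers for 1 of 8 on labelled day 7 (414 to 573) and 2 of 8 on labelled day 14 (466 to 520 against 212 to 369). Myofibroblast markers were called lower for 2 of 4 on each labelled day, 4 of 7 and 3 of 7 neutrophil markers were lower, and 1 of 7 endothelial markers was lower on labelled day 14. The neutrophil sums overlapped on labelled day 7, at 403 to 426 in db/db + vehicle and 401 to 447 in db/db. On labelled day 14 they were higher with vehicle, at 324 to 369 against 254 to 295. The part of these cells in the collagen differences was not tested. All 7 members called on labelled day 7 differed in the called direction on each slide, 5 past 2-fold on slide 1 and 6 on slide 2, which calling on the mean of both favours.

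The comparison of db/db + estrogen with db/db + vehicle holds the oil constant, and it gave 10 members higher and 1 lower of 39 tested on labelled day 7, against 4.92% and 4.57% of all genes, 9.5% in either direction. Among members above background on all arrays compared, 8 of 35 were called, 7 higher and 1 lower. Col4a3, Col6a6 and Col28a1 entered the counts only through the db/db + estrogen arrays, which favours a rise. The members that rose after adjustment were Col4a4, Col6a5, Col6a6 and Col28a1, where 1.5% of all genes rose (3% were called in either direction). On labelled day 14, 0 of 37 were called by limma, against 1.04% of all genes, 0 had an unadjusted p under 0.05, and the lowest p was 0.0685. Of the 50 collagen probes tested there, 1 was called higher, the second probe of Col6a6, whose brightest probe was not tested.

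Of the 10 members that rose, 4 were basement membrane chains and 6 were of other types, and after adjustment 1 and 3 remained. Col4a4 read −3.62 and −3.98 in db/db + vehicle and −2.35 and −1.52 in db/db + estrogen (1.87 ± 0.37, adjusted p = 0.0309). Col4a3 rose by 3.62 ± 0.96 (adjusted p = 0.0701), with 1 vehicle array above background, Col15a1 by 1.90 ± 0.44 (adjusted p = 0.0511), and Col4a6 by 1.39 ± 0.52 (adjusted p = 0.169) with −0.12 in its second probe. The Col4a6 call was lost without the first (1.30) or second (1.48) treated array or the first vehicle array (0.81). For Col15a1, whose vehicle arrays read −3.54 and −2.68, the other probes gave 2.10 and 1.91, each called after adjustment. Col17a1 read 1.84 and 2.75 in db/db + vehicle and 3.31 and 3.09 in db/db + estrogen, a difference of 0.91 ± 0.32 (adjusted p = 0.147) that missed the fold threshold, and on labelled day 14 the difference was −0.48. Col4a1 and Col4a2 differed by 0.46 and 0.73 (95% interval of Col4a2 0.22 to 1.25) on labelled day 7, and neither was called.

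Of the minor type VI chains Col6a5 and Col6a6 rose, and Col6a4 differed by 0.60 and was not called. Col6a6 read −7.70 and −8.25 in db/db + vehicle, not well above background, and −3.78 and −4.19 in db/db + estrogen, at least 9.63-fold higher (adjusted p = 0.0114), and its second probe was at least 7.23-fold higher. Col6a5 read −5.00 and −4.79 against −1.87 and −2.84, a rise of 2.54 ± 0.55 (adjusted p = 0.0423). The untreated db/db arrays lay between these groups for Col6a6, at −5.37 and −5.95, and within the estrogen range for Col6a5, at −2.73 and −2.40. The main type VI chains differed by 0.62 to 0.90, and each treated array was above each vehicle array, in a comparison where 59.1% of all genes tested did not overlap. Col28a1 rose by 2.97 ± 0.55 (adjusted p = 0.0246), Col8a2 by 3.11 ± 0.79 (adjusted p = 0.0632), Col8a1 by 1.36 ± 0.58 (adjusted p = 0.218) and Col20a1, a fibril-associated chain, by 1.36 ± 0.47 (adjusted p = 0.143). Col24a1 was lower, at −2.99 and −3.49 against −1.90 and −1.66 (−1.46 ± 0.58, adjusted p = 0.186). The calls of Col8a1, Col20a1 and Col24a1 were each lost without 3 of the 4 arrays taken in turn, with values of 0.83 to 1.47, 1.14 to 1.38 and −1.58 to −1.22. Col1a1, Col1a2 and Col3a1 differed by 0.14, 0.23 and 0.21, and the interval of Col1a1 ran from −0.52 to 0.80.

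All 11 called members differed in the called direction on each slide, 11 past 2-fold on slide 1 and 9 on slide 2, which calling on the mean of both favours. Hair follicle markers were called higher for 6 of 7 in this comparison too, at sums of 9.17 to 12.7 against 0.306 to 2.57, while keratinocyte markers were called for 1 of 8, at 418 to 530 against 414 to 573, and 4 of 7 neutrophil markers were lower. Fibroblast markers were called higher for 1 of 11 (332 to 358 against 266 to 303), myofibroblast markers for 1 of 4 and leukocyte markers for 1 of 5. The part of these cells was not tested.

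Whether these differences changed between the labelled days was tested as the difference on labelled day 14 minus that on labelled day 7. For db/db + estrogen against db/db, 9 of 40 members tested were called, all lower, where 6.65% of all genes were called and 2.69% were lower. They were Col4a3, Col4a4, Col4a6, Col15a1, Col17a1, Col6a5, Col8a2, Col26a1 and Col28a1, with differences from −3.37 to −1.04. For db/db + estrogen against db/db + vehicle, 6 of 40 were called lower, against 6.87% of all genes and 3.85% lower, with Col6a5 at −3.36 ± 0.78 (adjusted p = 0.179) and Col6a6 at −3.39 ± 0.86 (adjusted p = 0.212). For db/db against WT, 2 of 39 were called, both higher, against 6.15%, 1.35% higher. Col4a5 changed from −0.71 to 0.56 (1.27 ± 0.29, adjusted p = 0.0818) and Col5a3 from −0.22 to 0.93 (1.15 ± 0.35, adjusted p = 0.169). For db/db + vehicle against db/db, limma called 0 of 38, with 1 at an unadjusted p under 0.05, against 2.34%. In each of these 4 tests limma left 0 members after adjustment, where 0.128%, 0.0116%, 0.271% and 0% of all genes were left, in the order given here.

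Probes of 1 gene were set against each other where both were tested, and they disagreed where their differences lay more than 1 log2 unit apart or had opposite signs with 1 of them called. In the comparisons of groups this held for Col4a4, Col4a6, Col8a2, Col16a1 and Col25a1, and in the differences between labelled days also for Col15a1 and Col6a6. Col16a1, which links fibrils near the dermal-epidermal junction, was the clearest case. Its brightest probe A_55_P2056739 read 4.39 and 5.17 in WT and 5.03 and 4.43 in db/db on labelled day 7, a difference of −0.05 ± 0.30. Its probe A_55_P2124751 read 1.39 and 2.13 in WT and 0.00 and −0.46 in db/db, and 2.10 and 2.29 against 0.78 and 0.55 on labelled day 14. That probe fell by 1.99 ± 0.30 (adjusted p = 0.00383) and by 1.54 ± 0.30 (adjusted p = 0.00831), and every array of the other groups was below every WT array. The third probe A_55_P2056735 gave −0.13 and 0.17.

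Col25a1, a transmembrane collagen known from neurons, showed a like split in its probe A_55_P2160750. It read −3.81 and −4.24 in WT and −6.22 and −6.79 in db/db on labelled day 7 (−2.48 ± 0.64, adjusted p = 0.0316), and on labelled day 14 −3.84 and −1.88 in WT while neither db/db array was well above background, at least 21.1-fold lower (adjusted p = 0.000495). The brightest probe A_55_P2107711 gave 0.31 and −0.58, and A_55_P2107715 gave 1.43 and −2.29. Of the 3 probes only A_55_P2160750 was called on labelled day 7. The WT and db/db groups also differ in strain, which cannot be told apart from the mutation for these probes either.

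With estrogen on labelled day 7, the Col4a6 probe A_52_P516409 rose by 2.42 while A_52_P447196 read −3.14 and −3.12 in db/db and −3.18 and −3.0 in db/db + estrogen. Over all 16 arrays this second probe stayed between −3.61 and −2.86. For Col8a2 the brightest probe gave 2.67 and the second 0.90 ± 0.28 (adjusted p = 0.102), in the same direction. For Col4a4 the 3 probes gave 1.96, 1.42 and 0.93, and the first pair was called after adjustment. The 3 probes of Col15a1 gave 1.96, 1.86 and 1.92 and the 2 of Col6a6 gave 1.67 and 1.71, so these members did not rest on 1 probe. Which transcripts each probe matches was not analysed here.

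**Figure D5:**
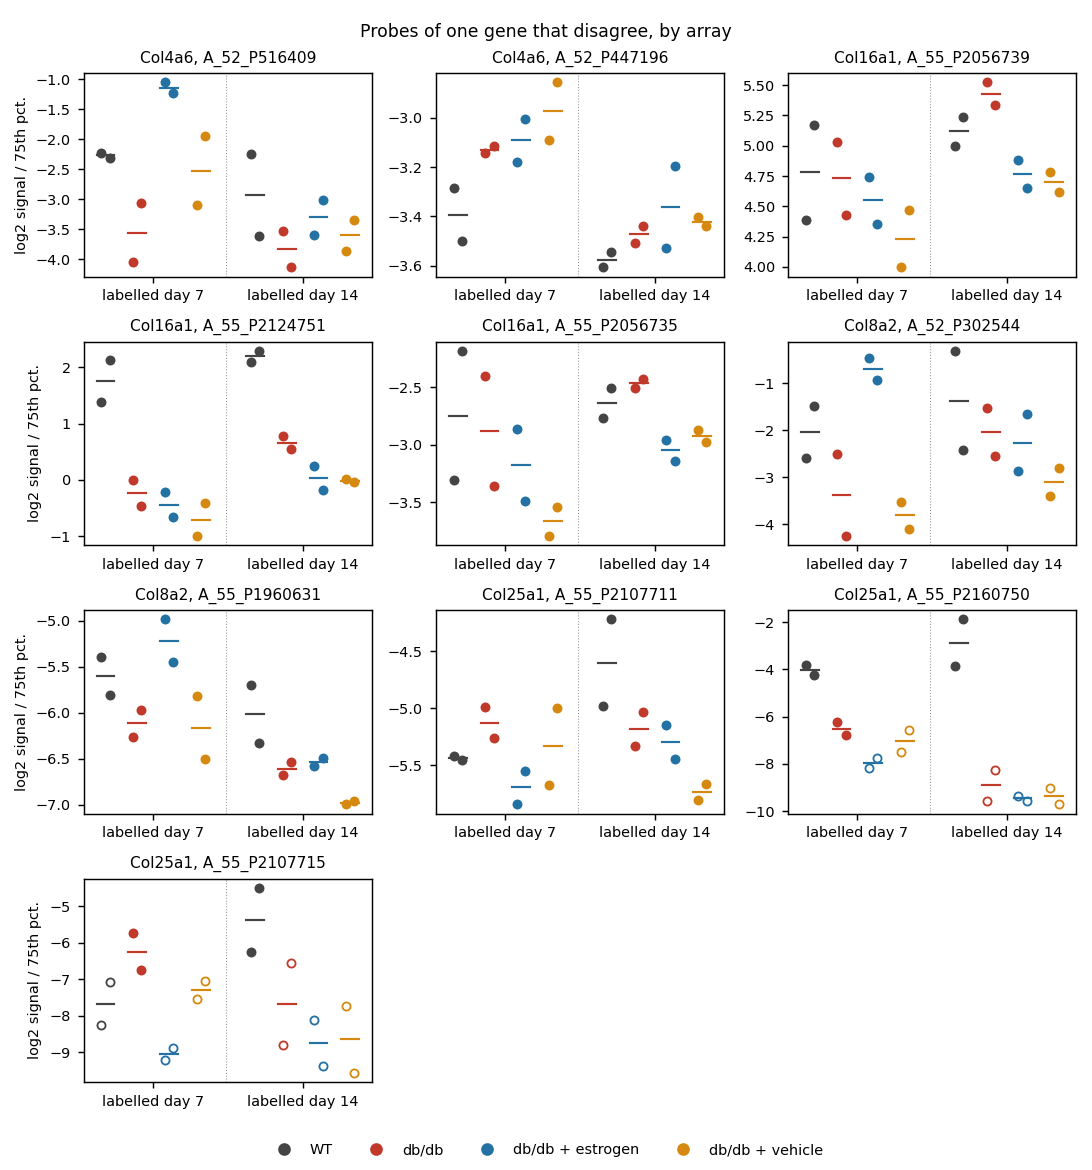
Level of each probe of Col4a6, Col16a1, Col8a2 and Col25a1 on each array by group and labelled day, as log2 signal minus the log2 75th percentile of the array, with each panel on its own axis (points, arrays; bar, mean of 2; open points, groups not above background on both arrays). The Col16a1 probe A_55_P2124751 and the Col25a1 probe A_55_P2160750 are highest in WT on each labelled day, while the brightest Col16a1 probe overlaps between WT and db/db on labelled day 7.

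The genes that act on collagen were followed through 4 lists. Of the enzymes and chaperones that fold and process collagen, 31 were tested in each comparison and few were called. Plod2, the lysyl hydroxylase of collagen telopeptides, was lower in db/db than in WT on labelled day 7 (−1.21 ± 0.35, adjusted p = 0.0468) and higher on labelled day 14 (1.28 ± 0.35, adjusted p = 0.0294). Loxl4, a cross-linking oxidase, was higher in db/db on labelled day 7 (1.17 ± 0.31, adjusted p = 0.0364), and Plod3, another lysyl hydroxylase, on labelled day 14 (1.04 ± 0.23, adjusted p = 0.0132). With estrogen on labelled day 7, Plod2 rose by 2.89 ± 0.35 (adjusted p = 0.00217) and Colgalt2, a collagen galactosyltransferase, by 2.67 ± 0.48 (adjusted p = 0.0119), and Bmp1, which removes the propeptide of fibrillar collagens, fell by 1.16 on the log2 scale (adjusted p = 0.0142). Against vehicle Plod2 and Colgalt2 rose by 1.89 and 2.57, and Plod2 rose with vehicle alone by 1.00. The median difference of this list was −0.16 with estrogen against db/db and 0.15 for db/db against WT on labelled day 7.

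The collagen-cutting proteases showed wider differences, from −6.25 to 5.24 on the log2 scale. Of 6 tested, 3 were higher in db/db than in WT on labelled day 7, the neutrophil collagenase Mmp8 (5.24 ± 0.62, adjusted p = 0.00118), the gelatinase Mmp9 (4.40 ± 1.04, adjusted p = 0.0233) and the collagenase Mmp13 (2.97 ± 1.05, adjusted p = 0.0903), and on labelled day 14 Mmp8 (3.01) and Mmp2 (1.63) were. With estrogen on labelled day 7, Mmp8 fell by 6.25 and Mmp9 by 5.24 on the log2 scale (adjusted p = 0.000819 and 0.0187), and Mmp2 by 1.18. On labelled day 14 Mmp8, Mmp2 and Mmp14 fell by 1.95, 1.15 and 1.11, none after adjustment, and against vehicle Mmp8 fell by 3.24 and Mmp9 fell by 4.5 on labelled day 7 (adjusted p = 0.0276 and 0.0499). With vehicle Mmp8, Mmp2 and Mmp14 fell on each labelled day, by 3.02, 1.18 and 1.04 and by 1.80, 1.11 and 1.19, none after adjustment. The neutrophil markers given above, a list that holds neither gene, were called in the same directions as Mmp8 and Mmp9 on labelled day 7, and their part in these differences was not tested.

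Of 9 collagen receptors, the epithelial receptor kinase Ddr1 was lower in db/db than in WT on each labelled day (−1.6 ± 0.22 and −1.17 ± 0.22, adjusted p = 0.00247 and 0.00715) and rose with estrogen on labelled day 7 (1.27 ± 0.22, adjusted p = 0.00999). The integrin chain Itga2 was lower in db/db on labelled day 14 (−1.24, adjusted p = 0.0308), Itga1 fell with estrogen on labelled day 7 (−1.30) and with vehicle on labelled day 14 (−1.08), and Itga11 fell in 3 comparisons of treated with untreated db/db wounds (−1.52 to −1.0), none after adjustment. Of 14 proteoglycans and glycoproteins that bind fibrils, Ogn rose with estrogen on labelled day 7 against db/db (1.98 ± 0.45, adjusted p = 0.0318) and against vehicle (2.47 ± 0.45, adjusted p = 0.0217). Thbs1, an adhesive glycoprotein, was higher in db/db than in WT on each labelled day (1.11 and 1.45) and fell with estrogen on each (−1.15 and −1.15), none after adjustment. Comp, Kera, Bgn and Fn1 were each called in at least 1 comparison, none after adjustment.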

How the data were processed

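RNA of whole wounds was hybridised to Agilent 1-colour 4x44K mouse arrays, 16 arrays in all. The authors deposited the scanner output of Agilent Feature Extraction 11.0.1.1, whose processed intensity is background-subtracted and spatially detrended with no scaling between arrays, and a value table from GeneSpring that holds the ratio of each signal to the 75th percentile of its array, within 0.1% and up to a constant, for 34643 probes. That deposited ratio table was used as an alternative. The genome build behind the array's annotation played no part, and probes were named through the RefSeq accession of each spot (27427 of 39429 probes, 69.6%).

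Levels were log2 intensity minus the log2 75th percentile of the array. Spots of 1 probe were averaged and control spots left out. Differences between groups were tested with limma 3.58.1 in R 4.3.3 over all probes, with a mean for each of the 8 groups and 8 degrees of freedom left. A comparison took in those probes that both arrays of 1 or both groups showed well above background. Calls used the study's thresholds, an unadjusted p under 0.05 and a fold above 2, and Benjamini-Hochberg adjustment ran over all probes tested. Percentages of all genes called count each gene through its brightest probe. Where no array of a group was well above background, a fold is a lower bound against the lowest signal that was. The code was tested on simulated data. Replicate arrays correlated at 0.979 to 0.994, and no pair was identical. That replicates are separate animals comes from the deposited design, and arrays limit the precision to 2 values a group.

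Given in full were the measured chains of types I, III, IV, V, VI, VII and XVII, the called members with the largest changes (at most 4 per class and direction), genes with disagreeing probes, and up to 3 called genes of each direction from the pathway lists. The members and lists were chosen with earlier results of these data known. Alternatives were normexp background correction with an offset of 50, quantile normalization, the deposited ratios, other filters, means over probes, only the arrays compared, slide and replicate blocks and leaving out each array. Col12a1 and Col21a1 are not analysed here. Upstream sequences are from RefSeq.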

Additional observations from a re-analysis of the deposited data

Results flagged for a closer look

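The following differences between groups changed between the labelled days, by limma's test of the difference on labelled day 14 minus that on labelled day 7 at an unadjusted p under 0.05 and a change of more than 2-fold. None passed adjustment, and the labelled days were also scanned apart, which the design ties to the day.

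For db/db against WT, Col4a5 changed by 1.27 ± 0.29 (SE) and Col5a3 by 1.15 ± 0.35. The call of Col5a3 was lost without the second WT (0.95) or second db/db array (0.82) of labelled day 7 and with slide as a fixed block (0.97), and that of Col4a5 was kept with each array left out in turn.

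For db/db + estrogen against db/db, basement membrane members changed by −3.37 (Col4a3), −1.33 (Col4a4), −1.89 (Col4a6), −1.88 (Col15a1) and −1.04 (Col17a1). Col4a3 was above background only in db/db + estrogen on labelled day 7 among these groups, so its value depends on signals at background and is not a measured size. Members of other types changed by −1.80 (Col6a5), −2.91 (Col8a2), −2.23 (Col26a1) and −2.62 (Col28a1). Leaving out 1 array at a time lost each of these calls at least once except that of Col28a1, whose range over all alternatives was −3.25 to −1.33. Hair follicle markers changed downwards for 6 of 7 in the same comparison, and their part was not tested.

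For db/db + estrogen against db/db + vehicle, the changes were −3.64 (Col4a3), −1.53 (Col4a4), −1.39 (Col17a1), −3.36 (Col6a5), −3.39 (Col6a6) and −2.63 (Col28a1). Those of Col4a3 and Col6a6 each include a group with no array above background and are likewise no measured sizes. Those of Col6a5, Col6a6 and Col28a1 kept their call with each array left out in turn. For Col4a4, 1 of its other probes gave −0.07, and for Col6a6 the second probe gave −2.29.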

How the results depend on the processing

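The value in each case is the number of collagen genes called, and 0 of the single-gene differences reversed under any alternative. With an adjusted p in place of the unadjusted one the counts were, for db/db against WT, 2 on labelled day 7 and 3 on labelled day 14, for db/db + estrogen against db/db 6 and 0, for db/db + vehicle against db/db 0 and 0, and for db/db + estrogen against db/db + vehicle 4 on labelled day 7. For the differences between labelled days that were called, it was 0 in the comparisons db/db against WT, db/db + estrogen against db/db, and db/db + estrogen against db/db + vehicle. Quantile normalization gave 2 for db/db against WT on labelled day 14. Slide as a fixed block gave 1 for db/db + estrogen against db/db on labelled day 14 and 1 for the differences between labelled days in db/db against WT and in db/db + vehicle against db/db. Normexp background correction gave 1 for db/db + vehicle against db/db on labelled day 14, and a fit of only the arrays compared gave 1 for its difference between labelled days. Leaving out 1 array at a time gave 2 to 8 for db/db against WT on labelled day 14 (2 without the second WT array, 8 without the first, 3 without the second db/db array), 8 to 12 and 2 to 3 for db/db + estrogen against db/db on labelled days 7 and 14, 1 to 3 for db/db + vehicle against db/db on labelled day 14 and 0 to 2 for db/db + estrogen against db/db + vehicle on labelled day 14. For differences between labelled days it gave 2 to 6 for db/db against WT, 2 to 9 for db/db + estrogen against db/db and 0 to 3 for db/db + vehicle against db/db. The cause of these shifts was not tested.

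Deviations of same-numbered arrays correlated between −0.454 and 0.388, with both signs on each labelled day, and the arrays were not treated as pairs. On labelled day 7 the replicate number is also the slide. With the replicate number as a block, the counts were 6 and 5 for db/db against WT, 14 and 3 for db/db + estrogen against db/db, 6 and 2 for db/db + vehicle against db/db and 9 and 0 for db/db + estrogen against db/db + vehicle on labelled days 7 and 14. For the differences between labelled days they were 2, 5, 1 and 6. A block with the numbers of 1 group crossed, chosen after seeing the data, gave 5 to 14 on labelled day 7 and 2 to 5 on labelled day 14.

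Scaling moved the share of all calls that were higher by over 10 percentage points also for db/db + estrogen against db/db on labelled day 14 (65.4% to 53.2% with quantile normalization), for db/db + vehicle against db/db on labelled day 14 (70.7% to 59.2% with normexp) and for the differences between labelled days in db/db against WT (13.0% to 24.5%) and db/db + vehicle against db/db (81.3% to 65.5%, both with quantile normalization). The median over all probes in db/db against WT moved from −0.12 to 0.07 with quantile normalization on labelled day 14 and from −0.05 to −0.19 with normexp on labelled day 7. Signals near background limit Col2a1, Col4a3, Col6a6, Col10a1, Col28a1 and the Col25a1 probes.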
